A study of Mus musculus with 2 samples.

Results

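The genes described here are 34 DNA repair genes of the mouse, taken by symbol from a list that covers base excision, single-strand break, mismatch, end joining, homologous recombination and nucleotide excision repair. All 34 were found among the 32285 genes measured by single-cell RNA sequencing of 2 post-ischemic kidneys. They form 6 groups by role: base excision (Apex1, Ogg1, Ung, Mutyh, Neil1, Polb), single-strand break repair and ligation (Xrcc1, Lig1, Lig3, Aptx, Tdp1, Fen1), mismatch repair (Msh6, Pms2), end joining (Xrcc4, Xrcc5, Xrcc6, Prkdc, Lig4), double-strand break sensing and homologous recombination (Atm, Atr, Brca1, Brca2, Palb2, Rad50, Mre11a, Nbn) and nucleotide excision (Xpa, Xpc, Ercc1, Ercc2, Ercc3, Ddb1, Ddb2).

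Poly (ADP-ribose) polymerase 1 (PARP-1) binds broken DNA and builds chains of ADP-ribose that bring repair proteins such as XRCC1 to single-strand breaks. A PARP inhibitor blocks that step, and cells with an inhibited PARP depend more on the repair of double-strand breaks by homologous recombination. In the kidney, ischemia followed by reperfusion injures the proximal tubule (PT) in particular and oxidizes DNA, and the base excision pathway removes oxidized bases such as 8-oxoguanine.

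Both animals were male C57BL/6 mice of 9 weeks that had bilateral renal ischemia-reperfusion injury (IRI). The control mouse was given saline into the peritoneal cavity just before reperfusion, and the other mouse was given JPI-289, a PARP-1 inhibitor, at 100 mg/kg at the same time and by the same route. Kidney tissue was taken 24 h after surgery and made into 1 droplet library per mouse with a 5′ kit. With 1 mouse and 1 library per condition, the drug cannot be told apart from the mouse or the library, no test between conditions was possible, and every interval below covers counting error only.

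The control library held 38328760 UMIs (unique molecular identifiers, each 1 captured RNA molecule) and the JPI-289 library 35548396. After cell calling, 3750 control cells and 5045 JPI-289 cells were kept, with a median of 2056.5 and 1866 UMIs. The 2 libraries shared 23 cell barcodes. Levels are given as CPM, the UMIs of a gene scaled to a total of 1000000 UMIs in the same class and library. PT-like cells numbered 1793 in the control and 1648 with JPI-289, and at least 95.3% of the cells of each of their clusters came from a single library, so cell state and library cannot be told apart by cluster. At least 7 markers of the list that named it were detected in each of these clusters. Cells that no marker list named numbered 142 and 390 and entered no comparison. The share of UMIs that free RNA could have given to a class was between 0.646% and 5.07%. Summed over all kept cells, the 34 genes had 512 CPM with saline and 513 CPM with JPI-289. In free RNA their summed level was 438 and 396 CPM.

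The 5 sequences below are the 100 bases before the transcription start of the genes at both ends of the PT-like comparison, to show what their promoters hold. They are the 2 with the highest and the 3 with the lowest log2 ratios among the 11 genes whose window met no annotated exon and whose RefSeq start lay within 50 bases of the GENCODE start. They come from RefSeq (GRCm38.p6), written 5′ to 3′ on the strand of the gene, with letters in capitals where a searched motif lies.
Ogg1: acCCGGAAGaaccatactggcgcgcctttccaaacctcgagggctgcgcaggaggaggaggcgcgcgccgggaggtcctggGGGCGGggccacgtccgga
Xpa: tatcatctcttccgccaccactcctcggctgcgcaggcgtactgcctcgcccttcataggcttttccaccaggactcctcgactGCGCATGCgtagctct
Brca2: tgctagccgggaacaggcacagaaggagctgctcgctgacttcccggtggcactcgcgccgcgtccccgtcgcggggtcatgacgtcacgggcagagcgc
Brca1: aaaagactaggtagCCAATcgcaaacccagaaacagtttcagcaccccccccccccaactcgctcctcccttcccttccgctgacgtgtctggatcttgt
Ung: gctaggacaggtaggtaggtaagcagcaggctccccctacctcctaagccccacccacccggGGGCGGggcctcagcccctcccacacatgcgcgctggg
The Ogg1 window is chr6:113326872-113326971 on the plus strand, and its capitals mark an ETS motif (CCGGAAG) and a GC box (GGGCGG). The Xpa window is chr4:46196312-46196411 on the minus strand, with an NRF1 motif (GCATGCGC, here read on the other strand). The Brca2 window is chr5:150522521-150522620 on the plus strand and holds none of the searched letters. The Brca1 window is chr11:101551956-101552055 on the minus strand, with a CCAAT box (CCAAT). The Ung window is chr5:114130286-114130385 on the plus strand, with a GC box. The share of G and C was highest in the Ogg1 window, at 72.0%, and lowest in the Brca1 window, at 56.0%.

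RefSeq promoters, from 250 bases before to 50 bases after the start, were matched to 27 of the 34 genes and to 27025 genes in all, and motifs were searched on both strands. The ETS letters stood in 10 of the 27 promoters (37.0%) against 9.12% of all promoters. The NRF1 letters stood in 6 (22.2%) against 2.80%, and the 4 spellings searched for E2F (TTTCCCGC, TTTCGCGC, TTTGCCGC or TTTGGCGC) in 3 (11.1%), those of Msh6, Xrcc6 and Brca2, against 2.32%. CCAAT stood in 15 (55.6%) against 37.9%, and the GC box in 17 (63.0%) against 35.9%. For each motif the share was above that of all promoters, which was not tested. The repair genes were given the promoter nearest their GENCODE start, and the other genes the first one listed. The 27025 genes were also not limited to those found in these cells, so the shares are not fully alike. Of the 2 genes over 2-fold higher in PT-like cells and the 5 over 2-fold lower with a promoter in the table, the ETS letters stood in 1 and 2, and the GC box in 1 and 3. These matches describe letters, not bound sites.

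In PT-like cells, end joining genes were lower in the JPI-289 library, genes of break sensing and recombination were split, and several excision repair genes were higher. Ogg1 and Fen1 were over 2-fold higher. Prkdc, Brca2, Brca1, Atr, Rad50, Ung and Xrcc4 were over 2-fold lower. Of the 34 genes, 32 reached 20 UMIs over both libraries, and the remaining 2 were Mutyh (4 control and 3 JPI-289 UMIs) and Palb2 (8 and 2 UMIs). The 2 genes over 2-fold higher were 6.25% of those 32, against a background of 9.13% of the 11308 genes that reached 20 UMIs. The 7 over 2-fold lower were 21.9%, against a background of 23.8%. Both shares were thus near those of all genes, and the median log2 ratio of the 32 was −0.20, the same as the −0.20 of all genes. Direction differed between the groups of genes by role. The ratio was above 0 for 14 of the 32, and for 41.8% of the 11308 genes. The 95% counting interval lay above 0 for 9 genes, below 0 for 10 and held 0 for 13. Intervals were not counted over all genes. Summed over the 34 genes, the level was 469 CPM (3812 UMIs) in the control and 568 CPM (4159 UMIs) with JPI-289, a log2 ratio of 0.27 (95% counting interval 0.21 to 0.34), so the sum and the median differed in sign. Ddb1, with 104 and 143 CPM, was the gene with the most UMIs in that sum. Centred on the median of all genes, 7 genes were over 2-fold higher and 6 lower, against 13.4% and 19.5% of all genes. Within the clusters led by injured PT markers alone, where the control had only 21 cells and 24271 UMIs, none of 24 genes was over 2-fold higher and 14 were lower, against 6.48% and 47.3% of all genes (median of all genes −0.92), and Apex1 (−0.26), Aptx (−0.11), Xpa (−0.11), Ercc1 (−0.93), Ercc3 (−0.65) and Ddb1 (−0.048) were below 0.

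**Figure D1:**
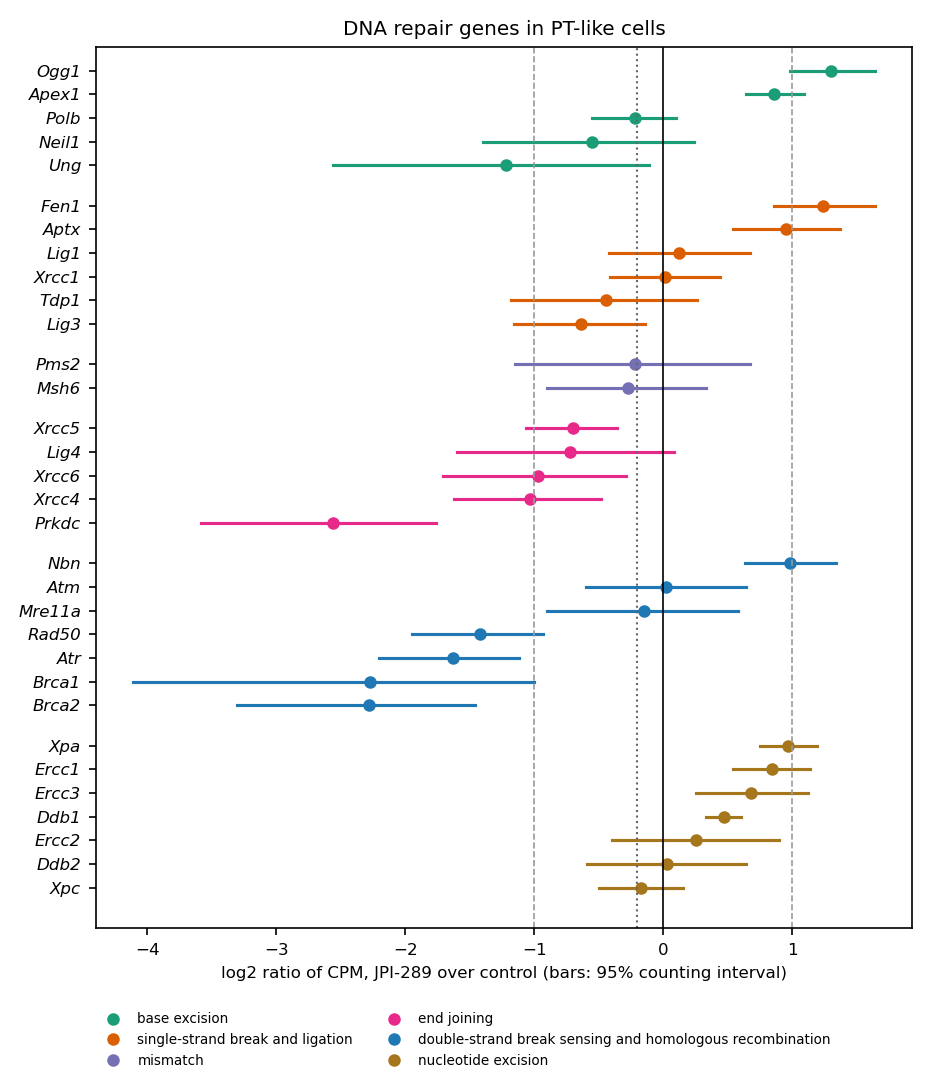
Log2 ratio of CPM, JPI-289 over control, in PT-like cells for the 32 DNA repair genes with at least 20 UMIs, grouped and coloured by repair pathway; points are ratios, bars 95% counting intervals, dashed lines 2-fold, and the dotted line the median of all genes (−0.20). The 5 end joining genes all lie left of 0, and 6 of the 7 nucleotide excision genes lie right of it.

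Base excision repair takes out single damaged bases. Ogg1, the glycosylase that removes 8-oxoguanine (chr6:113326972-113335068), had 113 UMIs (13.9 CPM) in the control PT-like cells and 252 UMIs (34.4 CPM) in the JPI-289 cells. Its log2 ratio of 1.30 (0.98 to 1.64) was the highest of the 32. Apex1, which cuts the backbone at the abasic site left by a glycosylase, had 264 UMIs (32.5 CPM) and 433 UMIs (59.1 CPM), a log2 ratio of 0.86 (0.64 to 1.09). Both were higher in the JPI-289 cells by more than counting error. Ung, the glycosylase for uracil in DNA (chr5:114130386-114139323), went the other way with 24 UMIs (2.96 CPM) and 9 UMIs (1.23 CPM), a log2 ratio of −1.22 (−2.56 to −0.11), and it reached 20 UMIs only through the control. Neil1, another glycosylase for oxidized bases, had 36 and 22 UMIs, and Polb, the polymerase that fills the gap, had 181 and 140. Their log2 ratios of −0.55 (−1.40 to 0.24) and −0.22 (−0.55 to 0.10) were within counting error. The group summed to 76.6 CPM in the control and 117 CPM with JPI-289, a log2 ratio of 0.61.

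Single-strand break repair and ligation held the other gene over 2-fold higher. Fen1, the flap endonuclease of long-patch base excision and of replication (chr19:10199132-10204169), had 82 UMIs (10.1 CPM) in the control and 175 UMIs (23.9 CPM) in JPI-289 cells, a log2 ratio of 1.24 (0.86 to 1.64). Aptx, which clears failed ligation intermediates from DNA ends, had 79 UMIs (9.73 CPM) and 138 UMIs (18.8 CPM), a log2 ratio of 0.95 (0.54 to 1.37). Lig3, the ligase that partners XRCC1, had 92 UMIs (11.3 CPM) and 53 UMIs (7.23 CPM), a log2 ratio of −0.64 (−1.16 to −0.14). So Fen1 and Aptx were higher and Lig3 lower. Xrcc1, the scaffold that poly (ADP-ribose) recruits, had 100 UMIs (12.3 CPM) and 91 UMIs (12.4 CPM), and its log2 ratio of 0.013 (−0.41 to 0.44) was close to 0. Lig1 had 60 and 59 UMIs, with a log2 ratio of 0.12 (−0.42 to 0.67). Tdp1, which removes trapped topoisomerase from DNA ends, had 44 and 29 UMIs, with a log2 ratio of −0.44 (−1.18 to 0.26). The intervals of the 2 mismatch repair genes held 0 in PT-like cells. Msh6, which recognizes mismatches, had 55 and 41 UMIs (log2 ratio −0.27, −0.90 to 0.33), and Pms2, the endonuclease subunit, had 26 and 20 (−0.22, −1.15 to 0.67).

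End joining, which seals double-strand breaks without a template, was lower throughout. All 5 genes were lower in PT-like cells after JPI-289, and the interval lay below 0 for 4 of them. Of all 11308 genes compared, 41.8% had a ratio above 0. Prkdc, the catalytic subunit of DNA-dependent protein kinase (chr16:15637866-15842235), had 88 UMIs (10.8 CPM) in the control and 13 UMIs (1.77 CPM) in JPI-289 cells. Its log2 ratio of −2.56 (−3.58 to −1.76) was the lowest of the 32, and it reached 20 UMIs only through the control. Its partners Xrcc5 (Ku80) and Xrcc6 (Ku70), which hold the broken end, were lower by less. Xrcc5 had 199 UMIs (24.5 CPM) and 110 UMIs (15.0 CPM), a log2 ratio of −0.70 (−1.06 to −0.36). Xrcc6 had 57 UMIs (7.02 CPM) and 26 UMIs (3.55 CPM), a log2 ratio of −0.97 (−1.71 to −0.29). Xrcc4, the partner of ligase 4 (chr13:89774027-90089608), had 89 UMIs (11 CPM) and 39 UMIs (5.32 CPM), a log2 ratio of −1.03 (−1.62 to −0.48), and Lig4 itself had 37 and 20 UMIs, a log2 ratio of −0.72 (−1.60 to 0.083). Summed, end joining genes had 57.9 CPM in the control and 28.4 CPM with JPI-289, a log2 ratio of −1.03.

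The genes that sense double-strand breaks and carry out homologous recombination were split. Brca2, a mediator of homologous recombination (chr5:150522630-150570329), had 72 UMIs (8.87 CPM) in the control and 13 UMIs (1.77 CPM) in JPI-289 PT-like cells. Its log2 ratio was −2.28 (−3.30 to −1.46), and it reached 20 UMIs only through the control. Brca1 (chr11:101488764-101551955) had 29 UMIs (3.57 CPM) and 5 UMIs (0.682 CPM), a log2 ratio of −2.27 (−4.11 to −1.0), and it reached 20 UMIs only through the control. Atr, the kinase that answers to single-stranded DNA at stalled forks (chr9:95857597-95951781), had 135 UMIs (16.6 CPM) and 39 UMIs (5.32 CPM), a log2 ratio of −1.63 (−2.20 to −1.12). These 3 were all over 2-fold lower. The MRE11, RAD50 and NBN proteins form 1 complex at the break, but their genes differed in direction. Rad50 (chr11:53649519-53707319) had 134 UMIs (16.5 CPM) and 45 UMIs (6.14 CPM), a log2 ratio of −1.42 (−1.95 to −0.93). Nbn was higher, with 104 UMIs (12.8 CPM) and 185 UMIs (25.2 CPM), a log2 ratio of 0.98 (0.63 to 1.34). Mre11a had 37 and 30 UMIs, a log2 ratio of −0.15 (−0.90 to 0.58). Atm, the kinase that this complex activates, had 48 UMIs (5.91 CPM) and 44 UMIs (6.01 CPM), and its log2 ratio was 0.024 (−0.60 to 0.64).

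Nucleotide excision repair removes bulky lesions and crosslinks. Of the 7 genes of this group, 6 had a ratio above 0, against 41.8% of all genes, with the interval above 0 for 4. Xpa, which verifies the damage, had 276 UMIs (34 CPM) and 487 UMIs (66.5 CPM), a log2 ratio of 0.97 (0.75 to 1.19). Ercc1, a subunit of the nuclease that cuts 5′ of the lesion, had 150 UMIs (18.5 CPM) and 242 UMIs (33.0 CPM), a log2 ratio of 0.84 (0.54 to 1.14). Ercc3, a helicase of TFIIH, had 76 UMIs (9.36 CPM) and 110 UMIs (15.0 CPM), a log2 ratio of 0.68 (0.25 to 1.12). Ddb1, which carries damage recognition into an E3 ubiquitin ligase, had 842 UMIs (104 CPM) and 1050 UMIs (143 CPM), a log2 ratio of 0.47 (0.33 to 0.60). None of the 4 reached 2-fold. Xpc, the damage sensor, had 181 and 145 UMIs (log2 ratio −0.17, −0.50 to 0.15), Ercc2, the other TFIIH helicase, 41 and 44 (0.25, −0.40 to 0.90), and Ddb2, which binds ultraviolet lesions, 49 and 45 (0.027, −0.59 to 0.64). The group summed to 199 CPM in the control and 290 CPM with JPI-289, a log2 ratio of 0.54. Nucleotide excision genes outside the group went both ways. Rad23b (0.82) and Rbx1 (0.47) were among those above 0, and Ercc6 (−1.24), Uvssa (−1.13) and Cetn2 (−1.08) among those below. The values of the group therefore do not stand for the whole pathway.

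The PT-like cells formed 4 control and 3 JPI-289 clusters of at least 100 cells, which allowed a look at the spread within each library. The levels of 6 genes (Apex1, Aptx, Fen1, Nbn, Xpa and Ddb1) were higher in all 3 JPI-289 clusters than in all 4 control clusters, and those of 8 genes (Xrcc4, Xrcc5, Xrcc6, Prkdc, Atr, Brca1, Brca2 and Rad50) were lower. These were 18.8% and 25% of the 32 genes, against 8.38% and 15.6% of the 11308 genes. Some of the gaps were narrow or rested on few counts. Brca1 was at least 1.67 CPM (3 UMIs) in the control clusters and at most 1.36 CPM (4 UMIs) in the JPI-289 clusters. For Rad50 these limits were 10 and 9.70 CPM, and the lowest control level of Xrcc6 rested on 4 UMIs. Fen1 ranged from 2.66 to 13.1 CPM in the control clusters and from 20 to 26.9 CPM in the JPI-289 clusters. Xpa ranged from 26.6 to 50.5 CPM and from 57.2 to 80.3 CPM. Xrcc5 ranged from 22.4 to 33.3 CPM in the control and from 12.6 to 18.7 CPM in the JPI-289 clusters. Ogg1 overlapped, with 11.2 to 20 CPM in the control clusters and 18.0 to 53.8 CPM in the JPI-289 clusters, its highest value being in the cluster of 366 JPI-289 cells that was named by PT rather than injured PT markers, although the injury genes Havcr1 and Krt20 were among its 10 leading genes. Clusters of 1 library share that library, so they are not replicates of a condition.

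**Figure D2:**
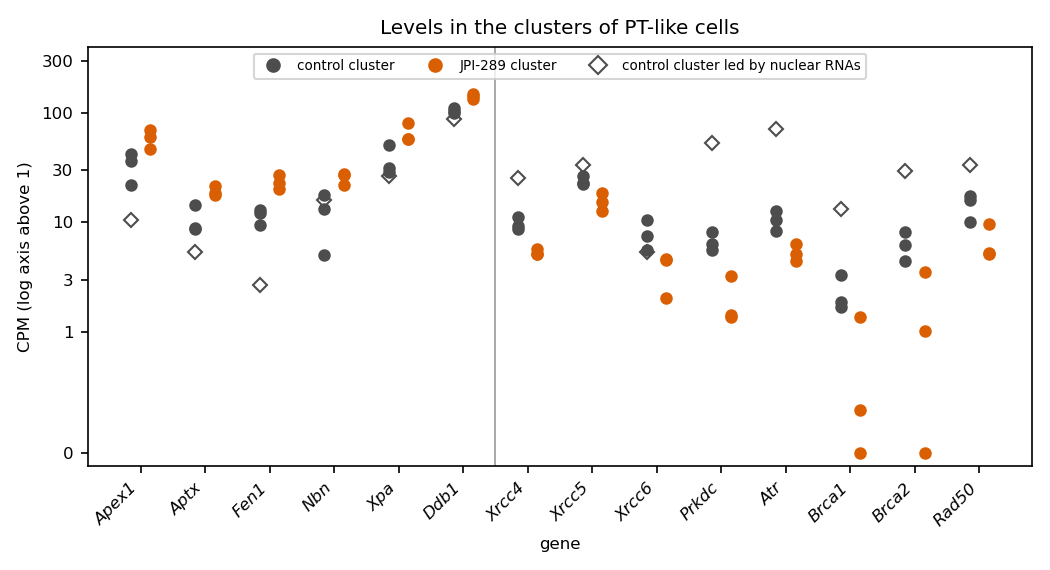
CPM (log axis above 1) in the 4 control and 3 JPI-289 clusters of PT-like cells with at least 100 cells, for the 14 DNA repair genes whose cluster ranges did not overlap; open diamonds mark the control cluster led by nuclear RNAs. The 6 genes left of the line are higher in the JPI-289 clusters, and Prkdc, Atr, Brca1, Brca2 and Rad50 peak in the diamond cluster (53.2 CPM for Prkdc).

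A control cluster of 228 PT-like cells had Neat1, a long RNA that stays in the nucleus, among its 10 leading genes, and no JPI-289 cell belonged to it. Of the repair genes, 21 had their highest cluster level there, among them Prkdc, Atr, Brca1, Brca2, Rad50, Xrcc4 and Xrcc5. Atm, Pms2 and Ddb2, whose intervals in PT-like cells held 0, peaked there as well. The share of all genes that peaked there was not counted, so this cannot be read as a trait of the repair genes. Atr was 70.6 CPM there and 8.33 to 12.7 CPM in the other 3 control clusters, and Prkdc was 53.2 CPM there and 5.55 to 8.09 CPM elsewhere. Malat1, another nuclear RNA, was 18782 CPM in the control PT-like cells and 5289 CPM in the JPI-289 cells. Without that cluster, Malat1 was 4716 and 5289 CPM. The log2 ratio of Prkdc was then −1.84, that of Brca2 −1.89, Brca1 −1.82, Rad50 −1.26 and Atr −1.05, so these 5 were still over 2-fold lower, while Xrcc4 was −0.83. Ogg1 was 1.31, Fen1 1.13 and Nbn 1.01. Xrcc6 (−1.0) and Ung (−1.30) were the other genes past 2-fold below. The counts were 3 genes over 2-fold higher and 7 lower, against 11.3% and 18.5% of all genes, and the median was −0.043, against −0.045 for all genes. A cluster led by the same kind of RNAs (Neat1, Snhg11, Gm26917, Malat1) held 51 control and 304 JPI-289 cells. No marker list named it, so these JPI-289 cells were outside the PT comparison while the 228 control cells were in it. Slc12a3, a marker of the loop of Henle and distal tubule list, was also among its 10 leading genes. With at most 20% mitochondrial UMIs, a cluster led by these RNAs (66 control and 303 JPI-289 cells) was named loop of Henle and distal tubule. With the first step of cell calling only, such a cluster (3 control and 92 JPI-289 cells) had its highest marker scores for injured PT (1.54) and PT (1.35). With at least 1000 UMIs per cell, another (6 and 224 cells) did so too (1.40 and 1.06). Both stayed unnamed. The unnamed cluster may therefore hold distal tubule cells, PT cells or both, which was not tested. With this cluster added to the PT-like cells, 3 genes were over 2-fold higher and 4 lower (Prkdc −1.77, Brca2 −2.18, Brca1 −1.18 and Ung −1.09), against 10.5% and 18.4% of all genes, and the median was 0.041. Atr was then −0.52, Rad50 −0.99 and Xrcc4 −0.96, so these 3 were no longer past 2-fold, and Lig3 was 0.13. The 5 end joining genes were below 0 in that setting too, and Ogg1 (1.23), Fen1 (1.12) and Nbn (1.06) were over 2-fold higher. Havcr1, the tubular injury marker KIM-1, was 115 CPM in the control and 452 CPM in JPI-289 PT-like cells, and its part in the repair genes' values was not tested.

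Among the repair genes, lower ratios in PT-like cells went with longer transcripts. Across the 32 genes, the log2 ratio had a Spearman correlation of −0.603 with the length of the longest annotated transcript, and across the 11300 genes matched to the annotation it was −0.133. The 7 repair genes of up to 2498 bases had a median log2 ratio of 0.86, the 11 of up to 4197 bases −0.22 and the 14 longer ones −0.46. Over all genes the medians in these classes were −0.044, −0.18 and −0.35. Without the cluster led by nuclear RNAs, the correlation was −0.549 over the 32 genes and −0.00707 over all genes. All points come from the same 2 libraries and genes are not independent replicates, so these are descriptions. The part of transcript length in the results was not tested. Prkdc has the longest transcript, 12647 bases, and Apex1 the shortest, 1239 bases. Among the exceptions were Atm at 9819 bases, with its ratio close to 0, Aptx at 5383 bases (0.95) and Neil1 at 1693 bases (−0.55).

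**Figure D3:**
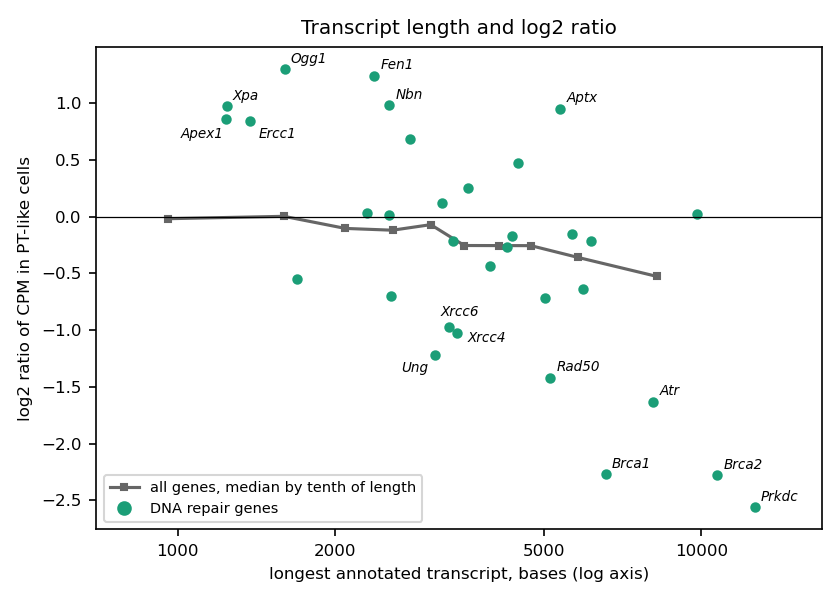
Log2 ratio of CPM in PT-like cells (JPI-289 over control) against the length of the longest annotated transcript in bases (log axis); green points are the 32 DNA repair genes and the grey line the median of all genes in bins of length. Prkdc, Brca2, Brca1 and Atr lie at lower right, far below the grey line, and Ogg1, Xpa and Apex1 at upper left.

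Several repair genes overlap or lie back to back with a neighbour on the opposite strand, and the values of protein-coding neighbours are given for the genes past 2-fold and for Ddb1. The antisense genes over Fen1 (6 and 13 UMIs for Gm10143), Xrcc4 (4 and 0 for Gm4117), Atr (3 and 0 for 1700065D16Rik, 4 and 2 for Gm16794) and Brca2 (0 and 0 for Gm42529) did not reach 20 UMIs. Fen1 overlaps Tmem258, which was also higher with JPI-289 (1042 and 1714 UMIs, log2 ratio 0.87, 0.75 to 0.98). Xrcc4 overlaps Tmem167, which was higher (783 and 1177 UMIs, 0.74, 0.60 to 0.87) where Xrcc4 was lower. Ddb1 overlaps Tkfc, which was lower (2362 and 533 UMIs, −2.0, −2.14 to −1.86) where Ddb1 was higher. Ogg1 overlaps Camk1, which was lower (418 and 205 UMIs, −0.88, −1.13 to −0.63) where Ogg1 was higher. Starts 194 bases apart separate Brca1 from Nbr1 (598 and 393 UMIs, −0.46, −0.64 to −0.27), and 466 bases separate Prkdc from the replication gene Mcm4 (84 and 54 UMIs, −0.48, −1.01 to 0.021).

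Fen1 and Xpa had 1 direction in every class compared, but outside the PT-like and EC-like cells Fen1 reached 20 UMIs only through the JPI-289 library. Xpa did so in neutrophil-like cells (14 and 88 UMIs). Of the repair genes, 20 had at least 20 UMIs in 4 or more of the 6 classes. Of these 20, 2 (Fen1 and Xpa) had a ratio above 0 in each class where they were compared. The ratio was below 0 in each for 5 (Lig3, Xrcc4, Xrcc6, Rad50 and Mre11a). The same count was not made over all genes, of which between 41.0% (EC-like cells) and 55.6% (neutrophil-like cells) had a ratio above 0 in a class. Of these 5, Rad50 reached 20 UMIs outside PT-like cells only through the control. So did Xrcc4 in loop of Henle and distal tubule-like, collecting duct-like and EC-like cells. The same held for Xrcc6 in EC-like cells and for Mre11a in EC-like and macrophage-like cells. Fen1 was 4.16 CPM in control and 13.6 CPM in JPI-289 loop of Henle and distal tubule-like cells (log2 ratio 1.62, 0.39 to 3.28). It was 6.75 and 20.2 CPM in collecting duct-like cells (1.52, 0.43 to 2.92), and 13.4 and 39.2 CPM in macrophage-like cells (1.52, 0.73 to 2.46). In EC-like (endothelial) cells it was 19.3 and 33.8 CPM (0.80, 0.19 to 1.43). Control neutrophil-like cells had 0 Fen1 UMIs and JPI-289 neutrophil-like cells 32 (19.9 CPM). Set against the 3 counts that a count of 0 allows, this was 2.88-fold higher, without the counting error of the 32 UMIs. The counting interval of the log2 ratio began at 1.14. In free RNA, Fen1 was 18.1 CPM (8 UMIs) in the control and 17.5 CPM (6 UMIs) with JPI-289. Xpa had log2 ratios between 0.47 (EC-like cells) and 0.97 (PT-like cells), with the interval above 0 in 5 of the 6 classes. In free RNA it was 40.8 CPM (18 UMIs) and 26.2 CPM (9 UMIs), which is in the opposite order but rests on few counts.

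**Figure D4:**
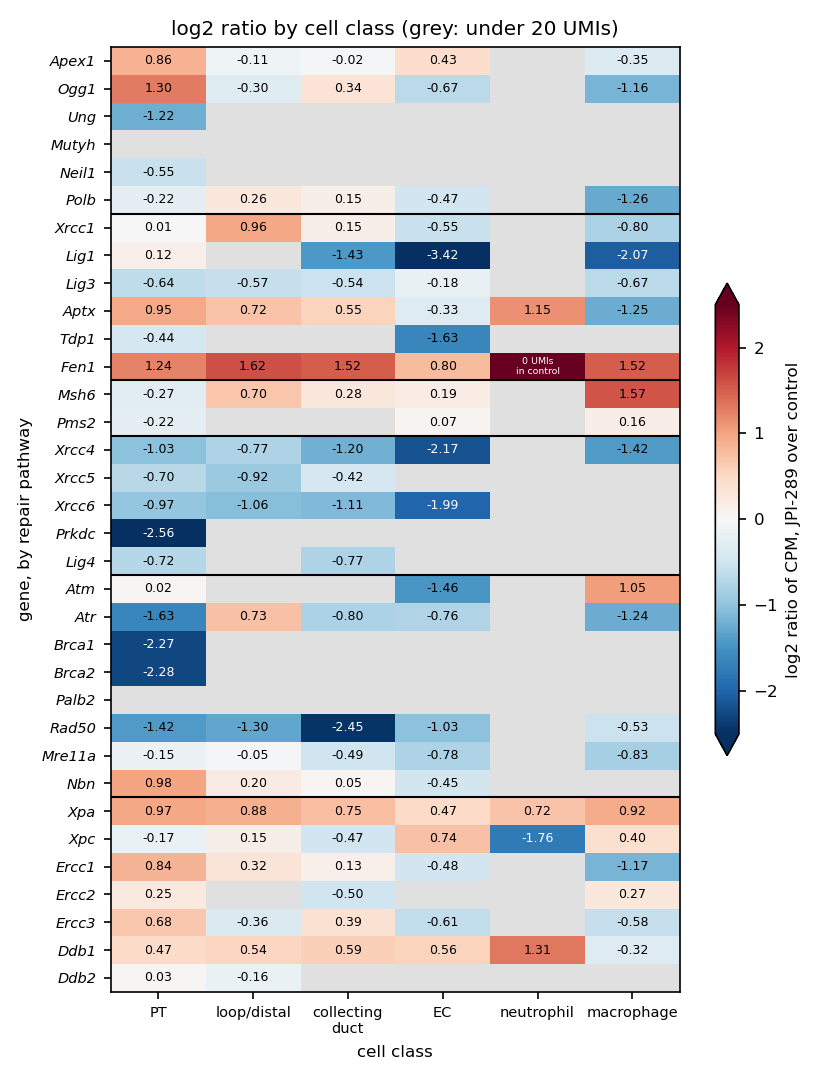
Log2 ratio of CPM, JPI-289 over control, for the 34 DNA repair genes (rows, by pathway) in 6 cell classes (columns); grey cells had under 20 UMIs over both libraries, and the colour scale ends at −2.5 and 2.5. Fen1 and Xpa are red across all 6 columns, and Xrcc4 and Rad50 are blue in the 5 columns where they were compared.

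In loop of Henle and distal tubule-like cells (499 control and 654 JPI-289), 21 repair genes reached 20 UMIs. Fen1 was the 1 gene over 2-fold higher, where 6.51% of 9017 genes were. Rad50 and Xrcc6 were the 2 genes over 2-fold lower, where 12.0% of genes were. Rad50 was 20.8 CPM (30 UMIs) in the control and 8.35 CPM (16 UMIs) in JPI-289 cells, a log2 ratio of −1.30 (−2.29 to −0.40). It reached 20 UMIs only through the control. Xrcc6 was 11.1 and 5.22 CPM (16 and 10 UMIs), a log2 ratio of −1.06 (−2.39 to 0.14). The median of the 21 was 0.15 and that of all genes −0.076. End joining genes summed to 58.9 and 31.3 CPM (log2 ratio −0.91, −1.41 to −0.42), nucleotide excision genes to 202 and 273 CPM (0.43, 0.22 to 0.64) and the mismatch repair genes, from 12 and 32 UMIs, to 8.32 and 16.7 CPM (0.97, 0.0091 to 2.10). Of the genes over 2-fold lower in PT-like cells, Atr was not lower here (4.85 CPM from 7 UMIs and 8.35 CPM from 16 UMIs, 0.73, −0.58 to 2.31).

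Collecting duct-like cells (123 control and 446 JPI-289) differed most between the libraries in depth among the 6 classes, with a median of 6864 UMIs per cell in the control and 1557.5 with JPI-289. Of 23 repair genes compared, Fen1 was over 2-fold higher, against 7.60% of 8850 genes, and Rad50, Lig1, Xrcc4 and Xrcc6 were over 2-fold lower, against 14.1%. Rad50 was 22.8 CPM (27 UMIs) and 3.92 CPM (6 UMIs), a log2 ratio of −2.45 (−4.11 to −1.23). Lig1, the replicative ligase, was 32.1 CPM (38 UMIs) and 11.7 CPM (18 UMIs), a log2 ratio of −1.43 (−2.35 to −0.60). Xrcc4 was 16.9 and 7.18 CPM (−1.20, −2.44 to −0.10), and Xrcc6 14.3 and 6.53 CPM (−1.11, −2.43 to 0.073). Rad50, Lig1 and Xrcc4 (20 and 11 UMIs) reached 20 UMIs only through the control. The median of the 23 was −0.022 and that of all genes −0.085.

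EC-like cells (500 control and 571 JPI-289) were spread unevenly by library over part of their clusters. A cluster held 185 control and 2 JPI-289 cells, and another 68 and 279. The remaining cluster was shared, with 247 and 290. No repair gene was over 2-fold higher, where 5.19% of 9722 genes were, and 6 of 23 were over 2-fold lower (26.1%), where 18.6% of genes were. The 6 were Lig1, Xrcc4, Xrcc6, Tdp1, Atm and Rad50. All but Tdp1 (19 and 5 UMIs) reached 20 UMIs only through the control. Lig1 had the lowest ratio of the 34 genes in EC-like cells, where it reached 20 UMIs only through the control, at 15.3 CPM (30 UMIs) in the control and 1.16 CPM (2 UMIs) in JPI-289 cells (log2 ratio −3.42, −6.82 to −1.73). Xrcc4 was 16.8 CPM (33 UMIs) and 3.49 CPM (6 UMIs), a log2 ratio of −2.17 (−3.81 to −0.99), and Xrcc6 was 10.2 and 2.33 CPM (−1.99, −4.14 to −0.55). Tdp1 was 9.67 and 2.91 CPM (−1.63, −3.51 to −0.26), Atm 10.2 and 3.49 CPM (−1.46, −3.15 to −0.17) and Rad50 19.3 and 9.31 CPM (−1.03, −2.0 to −0.18). Xpc was higher instead, with 20.9 CPM (41 UMIs) and 34.9 CPM (60 UMIs), a log2 ratio of 0.74 (0.15 to 1.35). The median of the 23 genes was −0.48, that of all genes −0.18, and with a minimum of 50 UMIs, which left 9 genes, it was 0.43.

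Ercc1 kept the same highest class. In both libraries its level was highest in EC-like cells, with 190 CPM (373 UMIs) in the control and 136 CPM (233 UMIs) in JPI-289 cells, and it lay between 13.8 and 54.0 CPM in the 6 other control classes with at least 300000 UMIs. Its log2 ratio in EC-like cells was −0.48 (−0.73 to −0.25), while in PT-like cells it was 0.84. It was 20 and 8.72 CPM in macrophage-like cells (−1.17, −2.33 to −0.14). Its level in free RNA was 40.8 CPM (18 UMIs) in the control and 17.5 CPM (6 UMIs) with JPI-289. Across the 7 classes of that size, neither PT-like cells nor neutrophil-like cells were the class of highest level for any repair gene in both libraries. Collecting duct-like cells were for 4 genes (Lig1, Lig3, Xrcc6 and Lig4) and stroma-like cells for 3 (Mutyh, Tdp1 and Ddb1). These ranks rest on few counts for several genes, such as 2 and 1 UMIs for Mutyh and 12 and 3 for Tdp1 in stroma-like cells, and were not tested. The other genes that kept their highest class were Ercc1 in EC-like cells, Mre11a in macrophage-like cells and Ddb2 in loop of Henle and distal tubule-like cells.

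Leukocytes gave fewer counts. Neutrophil-like cells (196 control and 653 JPI-289) had 80 and 326 UMIs over all 34 genes, and only Fen1, Ddb1, Aptx, Xpa and Xpc reached 20 UMIs. Fen1, Ddb1 and Aptx were over 2-fold higher, against 11.5% of 6249 genes, and Xpc over 2-fold lower, against 10.4%. Ddb1 had 5 UMIs (11.5 CPM) and 50 UMIs (31.0 CPM), a log2 ratio of 1.31 (0.12 to 3.12). Aptx had 2 and 20 UMIs (1.15, −0.61 to 4.57). Xpc had 10 UMIs (23.0 CPM) and 11 UMIs (6.83 CPM), a log2 ratio of −1.76 (−3.13 to −0.36). The median of the 5 was 1.15, also with Fen1 set against 3 control counts, and that of all genes was 0.10. With a minimum of 5 UMIs, 19 genes could be compared and the median was −0.17. The genes that reach 20 UMIs here are mostly those that were high in the larger JPI-289 class.

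In macrophage-like cells (201 control and 303 JPI-289), 3 of 21 repair genes were over 2-fold higher, against 8.88% of 8167 genes, and 7 were over 2-fold lower (33.3%), against 15.4%. Msh6 was 5.84 CPM (7 UMIs) in the control and 18.2 CPM (25 UMIs) in JPI-289 macrophage-like cells, a log2 ratio of 1.57 (0.39 to 3.09). Fen1 (1.52) and Atm (5.01 and 10.9 CPM, 1.05, −0.33 to 2.78) were the other 2. Lig1 was lower, with 13.4 CPM (16 UMIs) and 2.91 CPM (4 UMIs), a log2 ratio of −2.07 (−4.24 to −0.57). Polb was 28.4 CPM (34 UMIs) and 11.6 CPM (16 UMIs), a log2 ratio of −1.26 (−2.24 to −0.39). Xrcc4 (−1.42, −2.99 to −0.14) and Ercc1 were below 0 beyond counting error as well. Polb and Ercc1 (24 and 12 UMIs) reached 20 UMIs only through the control. Msh6 and Fen1 (16 and 54 UMIs) did so only through the JPI-289 library. Aptx (15 and 7 UMIs, −1.25, −2.84 to 0.082), Atr (17 and 8 UMIs, −1.24, −2.71 to 0.0022) and Ogg1 (16 and 8 UMIs, −1.16, −2.63 to 0.11) were past 2-fold with intervals that held 0. The median of the 21 was −0.58 and that of all genes −0.035.

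**Figure D5:**
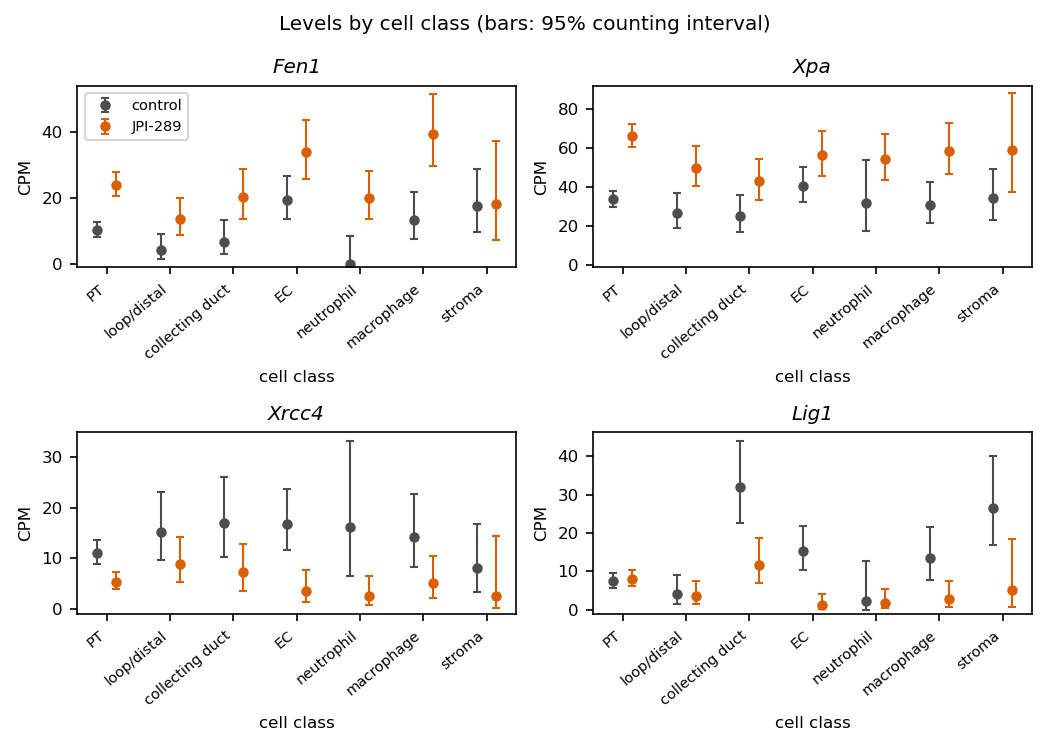
CPM of Fen1, Xpa, Xrcc4 and Lig1 by cell class in the control (grey) and JPI-289 (orange) libraries, with 95% counting intervals as bars; the 4 genes were chosen after their values were seen. Fen1 and Xpa are higher in JPI-289 in the 6 classes compared. Xrcc4 is lower in the 5 where it was compared, with a ratio interval that held 0 in loop of Henle and distal tubule-like cells. Lig1 is level in PT-like cells and lower in collecting duct-like cells, EC-like cells and macrophage-like cells.

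By their summed level, end joining genes and the genes of break sensing and homologous recombination were below 0 in each of the 6 classes. The summed log2 ratios of end joining were −1.03 in PT-like, −0.91 in loop of Henle and distal tubule-like, −1.0 in collecting duct-like and −1.93 in EC-like cells, and −2.19 in neutrophil-like cells (10 and 8 UMIs) and −1.43 in macrophage-like cells (43 and 18 UMIs), with each interval below 0. Those of break sensing and recombination lay between −0.81 (collecting duct-like and EC-like cells) and −0.26 (loop of Henle and distal tubule-like cells), and their intervals held 0 in loop of Henle and distal tubule-like, neutrophil-like and macrophage-like cells. Nucleotide excision genes summed to log2 ratios between 0.036 (macrophage-like cells) and 0.54 (PT-like cells), but the interval held 0 in EC-like, neutrophil-like and macrophage-like cells. Base excision genes did not share a direction, with 0.61 in PT-like cells and −0.69 in macrophage-like cells. Prkdc did not reach 20 UMIs outside the PT. Its counts were 14 control and 2 JPI-289 UMIs in collecting duct-like, 14 and 3 in EC-like, 9 and 7 in loop of Henle and distal tubule-like, 9 and 4 in macrophage-like and 2 and 1 in neutrophil-like cells. Brca1 had at most 2 control UMIs in any other class compared, and Brca2 at most 10 (10 and 6 in EC-like cells), so neither reached the minimum there.

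Among the other repair genes, most ratios in PT-like cells were below 0. Of 116 other repair genes, 95 reached 20 UMIs, with a median log2 ratio of −0.52 and 28 ratios above 0. Among all genes, 41.8% had a ratio above 0. Their summed level was 2194 CPM in the control and 2269 CPM with JPI-289, a log2 ratio of 0.049 (0.018 to 0.079), so sum and median differed in sign. Among them 1 was over 2-fold higher and 28 were over 2-fold lower, where 9.13% and 23.8% of all genes were. Among those with at least 50 UMIs, high log2 ratios were those of Rfc3, a subunit of the clamp loader (38 and 77 UMIs, 1.16, 0.59 to 1.77), Pold4 (1254 and 2156 UMIs, 0.93, 0.83 to 1.03) and Pold3 (89 and 147 UMIs, 0.87, 0.48 to 1.27), of which Pold4 and Pold3 are subunits of DNA polymerase delta. Those lowest were Mgmt, which reverses alkylated guanine directly (125 and 16 UMIs, −2.78, −3.67 to −2.06), Chek2, a checkpoint kinase (44 and 9 UMIs, −2.08, −3.36 to −1.09), Rad1, of the checkpoint clamp (111 and 24 UMIs, −2.04, −2.76 to −1.41), and Slx4, a nuclease scaffold (167 and 38 UMIs, −1.97, −2.54 to −1.47). In the other 5 classes the median over this list lay between −0.34 (collecting duct-like cells) and 0.34 (neutrophil-like cells).

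PARP genes and replication genes were set beside the repair genes. Parp1, which encodes the target of JPI-289, had 153 UMIs (18.8 CPM) in the control and 93 UMIs (12.7 CPM) in JPI-289 PT-like cells, a log2 ratio of −0.57 (−0.96 to −0.19). Parp1 was also lower in EC-like cells (25 and 7 UMIs, −1.57, −3.10 to −0.39). In collecting duct-like cells it had 27 and 9 UMIs (−1.90, −3.23 to −0.82). In macrophage-like cells it had 46 and 14 UMIs (−1.88, −2.89 to −1.03). In EC-like, collecting duct-like and macrophage-like cells, Parp1 reached the gene minimum only through the control, where it was high. Its interval held 0 in loop of Henle and distal tubule-like cells (19 and 16 UMIs, −0.65, −1.71 to 0.38). Neutrophil-like cells had 0 and 3 Parp1 UMIs. Parp2 had 80 and 35 UMIs in PT-like cells (−1.03, −1.66 to −0.45), and Parg, which degrades the ADP-ribose chains, had 180 and 121 (−0.42, −0.77 to −0.084). Of 18 genes of S phase and division, 14 were compared in PT-like cells, with a median of −1.10 (−0.20 for all genes). None was over 2-fold higher and 8 were over 2-fold lower, where 9.13% and 23.8% of all genes were. Tk1, the thymidine kinase of S phase, named here after its values were seen, had 287 UMIs (35.3 CPM) in the control and 6 UMIs (0.819 CPM) in JPI-289 cells (−5.32, −6.89 to −4.29). Of the helicase genes, Mcm2 (−1.18, −1.83 to −0.58), Mcm3 (−1.93, −2.88 to −1.14) and Mcm5 (−2.53, −3.65 to −1.66) were lower, and the intervals of Mcm4 (−0.48), Mcm6 (0.32) and Mcm7 (0.17) held 0. Mki67 had 8 and 0 UMIs and Top2a 11 and 0. Pcna, the sliding clamp that binds FEN1 and LIG1, was higher, with 298 UMIs (36.7 CPM) and 395 UMIs (53.9 CPM), a log2 ratio of 0.55 (0.33 to 0.78). Fen1 and Pcna were thus higher where most replication genes on the list were lower. The part of replication in the repair genes' levels was not tested.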

How the data were processed

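Droplet single-cell RNA sequencing (5′ kit) was done on 1 control and 1 JPI-289 kidney. The deposited files hold raw UMI counts of all barcodes, before any cell calling, from Cell Ranger 5.0.1 on mm10 per the submitters' processing notes (the file headers name Cell Ranger 4). Cells were called here in 2 steps, a UMI threshold and then a test against free RNA (at least 500 UMIs, false discovery rate 0.01), and cells over 50% mitochondrial UMIs were left out. Cells were scaled to 10000 UMIs, reduced to 2000 variable genes without any repair gene and 30 components, clustered (scanpy 1.11.5, Leiden resolution 1) and named from marker lists. Doublets were kept, and leaving out the 5% with the highest simulated-doublet score was an alternative.

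UMIs were summed per class and library. Log2 ratios had 0.5 UMIs added to each sum and are given for genes with at least 20 UMIs over both libraries. Exact binomial and Poisson intervals (95%) cover counting error only. With 1 library per condition, no test was made, and "over 2-fold" is a rule of size. Gene positions and transcript lengths are from GENCODE vM21 (GRCm38). The scripts were tested on simulated data. The genes, lists and alternatives were chosen with earlier results of these data known. All 34 genes are reported. From the other repair genes the 4 highest and 4 lowest in PT-like cells with at least 50 UMIs are named (1 of them is not reported here), in other classes the repair genes past 2-fold, and beside them the PARP genes and marks of S phase; any other gene was chosen after its values were seen. Other settings were tried, most of them planned with those earlier results known. The 2 that left out the PT-like cluster led by nuclear RNAs or added the unnamed one were chosen after seeing the data.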

Additional observations from a re-analysis of the deposited data

Results flagged for a closer look

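The genes Ogg1, Aptx and Atm were past 2-fold in opposite directions in a pair of cell classes, and none of these differences between classes was tested. Ogg1 had a log2 ratio of 1.30 (113 and 252 UMIs) in PT-like cells and −1.16 (16 and 8 UMIs) in macrophage-like cells, where the counting interval held 0. Aptx had 1.15 (2 and 20 UMIs) in neutrophil-like cells and −1.25 (15 and 7 UMIs) in macrophage-like cells, with both intervals holding 0. Atm had 1.05 (6 and 15 UMIs) in macrophage-like cells, where the interval held 0, and −1.46 (20 and 6 UMIs) in EC-like cells, where it lay below 0.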

How the results depend on the processing

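Counts are low for most repair genes, and depth limits what can be read outside PT-like cells. In PT-like cells the median of the repair genes was 0.0004 when centred on the median of all genes, and 7 genes were then over 2-fold higher. Restricted to the clusters led by injury genes, which hold 21 control cells and 24271 control UMIs, it was −1.52 over 24 genes (−0.92 for all genes), with 0 genes over 2-fold higher and 14 lower. With so few control UMIs, the 0.5 UMIs added to each sum can make a gene without control UMIs come out as lower. These values therefore give no direction. The median changed sign in EC-like cells with a minimum of 50 UMIs (0.43), in loop of Henle and distal tubule-like cells at Leiden resolution 0.5 (−0.28) and with a minimum of 5 UMIs (−0.11), and in neutrophil-like cells with the first step of cell calling only (−0.0052, 2 genes) and with a minimum of 5 UMIs (−0.17). With each cell weighing equally, Fen1 was 0.75 and Rad50 −0.89 in PT-like cells, no longer past 2-fold. Xrcc4 lay between −0.93 and −0.83 under 5 other alternatives, and Ung was −0.97 and −0.83 under 2. With the unnamed cluster led by nuclear RNAs added, which may hold distal tubule cells, PT cells or both, the median was 0.041 and 4 genes were over 2-fold lower. Atr (−0.52), Rad50 (−0.99) and Xrcc4 (−0.96) were no longer so. Prkdc, Brca1 and Brca2 were past 2-fold under every alternative that gave a value (Prkdc, Brca1 and Brca2 had none in the injury clusters, and Brca1 none with a minimum of 50 UMIs), and so was Ogg1 but for 0.068 in the injury clusters, where Fen1 was 0.25. The cause was not tested. No paired analysis was possible because each condition has 1 library.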
